A study of Bos taurus with 39 samples.

Results

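The miR-23, miR-24 and miR-27 microRNAs of the bovine oocyte are described here over all 13 conditions of the study. They were taken by name from the table of known mature miRNAs, as bta-miR-23a, bta-miR-23b-3p, bta-miR-24, bta-miR-24-3p, bta-miR-27a-3p and bta-miR-27b, which gives 6 members of 1995 miRNAs (1030 known and 965 predicted). At least 1 count was found for 5 of the 6 members and for 1455 of all miRNAs. The samples were 39 small RNA libraries of Bos taurus oocytes, with 3 libraries per condition. Control oocytes matured in vitro within their cumulus-oocyte complexes (COCs) for 1, 6 or 22 h, and 3 further control libraries are labelled 0 h. The CBX group consisted of complexes matured with carbenoxolone, which blocks gap junctions. Oocytes of the co-culture group (label Coculture) were denuded first and then matured apart from COCs across a porous insert, and those of the DO group (label Denuded) matured with no COCs. The ovaries came from a slaughterhouse, and the oocytes of a library were pooled. Control and CBX oocytes were freed of cumulus cells after maturation, and denuded oocytes were treated with pronase to take off the zona, so the groups also differ in how they were handled. The comparisons address whether the level of an miRNA in the oocyte depends on gap junctions, on contact with cumulus cells or on time.

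MicroRNAs are short RNAs that guide the silencing of mRNAs with matching sites, which they recognise mainly through the seed near their 5′ end. The mammalian genome carries miR-23, miR-27 and miR-24 hairpins side by side in a pair of clusters, one with miR-23a and miR-27a and the other with miR-23b and miR-27b, and each cluster is transcribed as a shared precursor. The a and b copies share their seed and are nearly identical, and both clusters yield the same mature miR-24. In the RefSeq annotation of ARS-UCD2.0, MIR23A, MIR27A and MIR24-2 lay on chromosome 7 inside LOC132345691, between MIR181C and ZSWIM4. MIR23B, MIR27B and MIR24-1 lay on chromosome 8 inside AOPEP, with MIR2475 and FANCC as neighbours. Each group of 3 hairpins had no other gene between its first and last member. A count of miR-24 therefore cannot be divided between the clusters, and the rule by which reads common to near-identical copies were assigned is not given in the sources used here, so the family sums are given beside the single members.

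Depth sets the precision of these values. The miRNA counts of a library numbered 18796 to 175429 at 1, 6 and 22 h (36 libraries, median 74429) and 11985, 68389 and 49916 at 0 h. The 6 members together held 0.362% to 0.876% of the counts of a library (median 0.646%). Of the 36 libraries, 2 stood apart, control 6 h replicate 1 with 20180 counts and CBX 22 h replicate 2 with 18796 counts. There the members held 0.431% and 0.362% of the counts, below the 0.546% to 0.876% of the other 34 libraries. The shallowest library at 0 h, with 11985 counts, had a member share of 0.609%. Values without the 2 libraries are given beside results that they move.

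**Figure D1:**
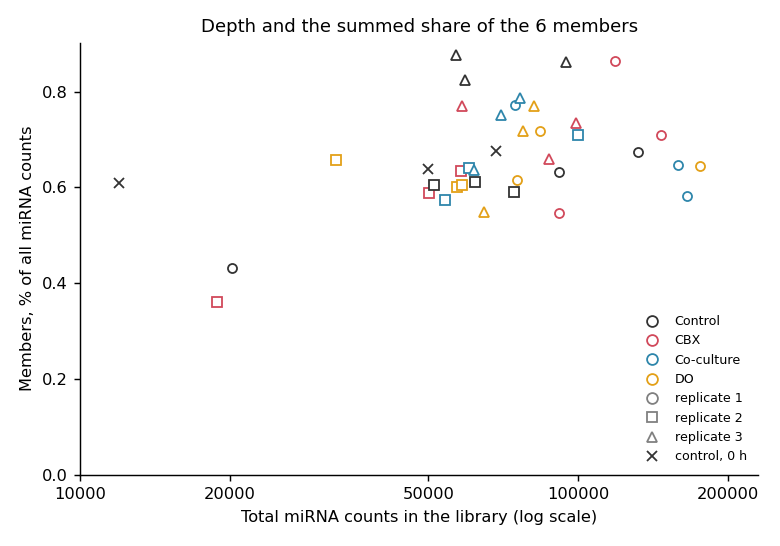
Summed share of the 6 members (percent of all miRNA counts) against the total miRNA count of each of the 39 libraries (log scale), with colours for groups, marker shapes for replicate numbers and crosses for control 0 h. The 2 libraries at 1 to 22 h with the fewest counts, 20180 and 18796, lie lowest at 0.431% and 0.362%.

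Marker miRNAs of other cell types were also detected. Summed over 6 listed cumulus and granulosa miRNAs, the level was 4212 to 11851 CPM (counts brought to a common library size, here without TMM scaling, with a median of 6388) over the 36, with bta-miR-212 at 0 throughout. The 6 blood miRNAs summed to 99.1 to 3240, the 5 vessel and stroma miRNAs to 1147 to 3133 and the 3 muscle miRNAs to 0 to 11980. In control 6 h replicate 1 and CBX 22 h replicate 2 the cumulus and granulosa sums were 4212 and 5852, the former being the lowest of the 36. No list of miRNAs that define the oocyte was used, so the cell type label was not checked against one. Here and below, fewer cells of a type and less miRNA per cell cannot be told apart.

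The 5 detected members spanned a wide range of abundance. bta-miR-27b held 12720 counts over the 39 libraries and stood at rank 20 among the known miRNAs of the 36 libraries. bta-miR-24-3p held 3775 counts (rank 50), bta-miR-23b-3p 2859 (rank 57), bta-miR-23a 863 (rank 91) and bta-miR-27a-3p 310 (rank 121). The b copy thus had more counts than the a copy in both families. The entry named bta-miR-24 had 0 counts of 3028647 in the 39 libraries, which allows up to 0.991 CPM, and the miR-24 sum equals bta-miR-24-3p. This limit covers counting error only.

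Within a library, bta-miR-27b exceeded bta-miR-24-3p in 39 of 39 libraries, with a median count ratio of 3.50 over the 36 libraries. bta-miR-24-3p exceeded bta-miR-23b-3p in 34 of 39 libraries, with a median ratio of 1.29, so these neighbours in the order overlapped. bta-miR-23b-3p exceeded bta-miR-23a in 38 of 39 libraries (median ratio 3.41). The exception was control 0 h replicate 1, the library with the fewest counts, where bta-miR-23b-3p had 3 counts and bta-miR-23a 8. bta-miR-23a exceeded bta-miR-27a-3p in 39 of 39 libraries (median ratio 2.67). These are ratios of counts, which need not equal ratios of molecules between different miRNAs.

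Levels of the members are given in CPM with the TMM scaling factors of edgeR over the 39 libraries. bta-miR-27b lay between 2388 and 5770 CPM in the 36 libraries (median 4034), with an SD of 0.25 on the log2 scale. bta-miR-23b-3p lay between 559 and 1362 CPM (median 937, SD 0.27). Among the 145 known miRNAs tested, 4.83% had a lower SD than bta-miR-27b and 6.21% a lower SD than bta-miR-23b-3p, and the median SD was 0.65. These shares were not matched for abundance, in which bta-miR-27b ranked 20 and bta-miR-23b-3p 57 among the known miRNAs. The coefficient of variation was 17.0% for bta-miR-27b and 17.7% for bta-miR-23b-3p, where counting error alone would give 6.29% and 13.0%.

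bta-miR-24-3p was more variable, between 254 and 2013 CPM (median 1233, SD 0.54). bta-miR-23a lay between 152 and 468 CPM (median 260, SD 0.45). bta-miR-27a-3p lay between 0 and 223 CPM (median 103, SD 1.37) and reached 10 counts in only 11 of the 39 libraries. The coefficient of variation over the 36 libraries was 26.5% for bta-miR-24-3p, 31.4% for bta-miR-23a and 51.0% for bta-miR-27a-3p, where counting error alone would give 11.6%, 23.6% and 38.4%. Without the 2 shallow libraries, bta-miR-24-3p had an SD of 0.26 on the log2 scale and a coefficient of variation of 18.9%, and bta-miR-27a-3p an SD of 0.84.

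**Figure D2:**
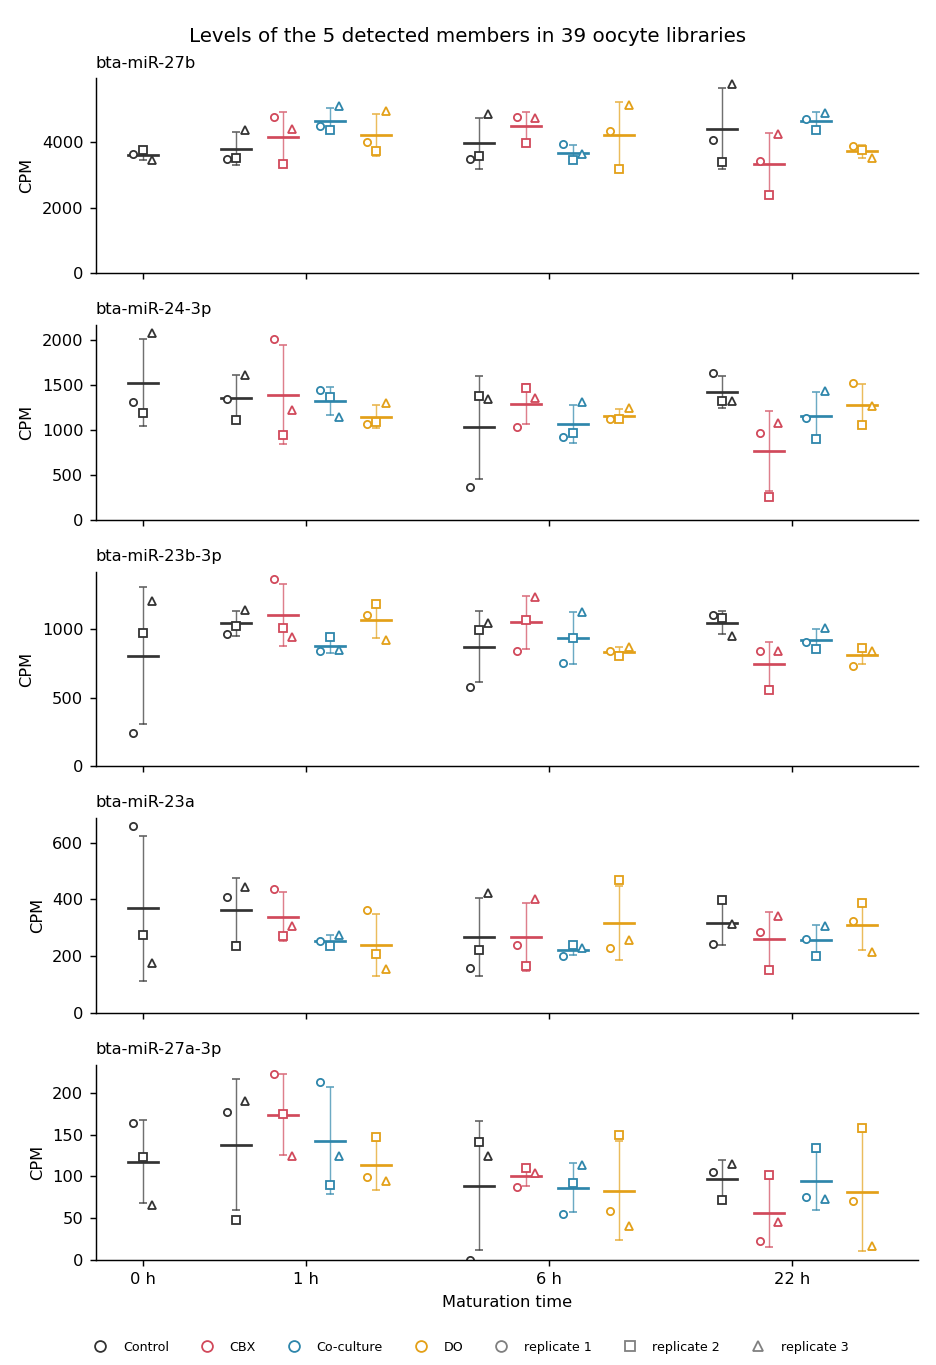
TMM-scaled CPM of the 5 detected members in 39 libraries by maturation time, with a marker per library, a horizontal bar for the mean and a vertical bar for the SD (n = 3). bta-miR-27b lies between 2388 and 5770 CPM at 1 to 22 h, and bta-miR-24-3p has its lowest values of 254 and 369 CPM in CBX 22 h replicate 2 and control 6 h replicate 1.

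At 1 to 22 h, the condition means of bta-miR-27b, the most abundant member, spanned a ratio of 1.39, from 3343 ± 924 CPM (SD, n = 3) at 22 h under CBX to 4656 ± 395 CPM (SD, n = 3) for co-culture at 1 h. The ratio was 1.48 for bta-miR-23b-3p, from 746 ± 162 to 1105 ± 225 CPM (SD, n = 3), with the lowest mean in the CBX group at 22 h and the highest in the CBX group at 1 h. For bta-miR-24-3p it was 1.86, from 767 ± 448 CPM (SD, n = 3) under CBX to 1428 ± 180 CPM (SD, n = 3) in the control group, both at 22 h. bta-miR-23a ranged 1.63-fold, from 222 ± 19.0 CPM (SD, n = 3) for co-culture at 6 h to 363 ± 111 CPM (SD, n = 3) in the control group at 1 h. The ratio of bta-miR-27a-3p was the highest at 3.09, from 56.4 ± 40.9 CPM (SD, n = 3) under CBX at 22 h to 174 ± 48.8 CPM (SD, n = 3) in the CBX group at 1 h. In 4 of the 5 members, all but bta-miR-23a, the lowest condition mean was in the CBX group at 22 h, which includes 1 of the 2 shallow libraries. Without these 2, that held for bta-miR-24-3p and bta-miR-27a-3p, and the ratio was 1.27 for bta-miR-27b, 1.36 for bta-miR-23b-3p, 1.39 for bta-miR-24-3p, 1.63 for bta-miR-23a and 5.16 for bta-miR-27a-3p. How often the CBX group at 22 h had the lowest mean among all miRNAs was not counted. With 0 h as a further condition, the highest mean of bta-miR-24-3p was 1528 ± 482 CPM (SD, n = 3) and that of bta-miR-23a 369 ± 255 CPM (SD, n = 3), both at 0 h, and the ratios were 1.99 and 1.66.

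At 0 h, before maturation, bta-miR-27b was at 3621, 3755 and 3460 CPM. bta-miR-24-3p was at 1317, 1188 and 2080 CPM, the last of these above all libraries at 1 to 22 h. bta-miR-23b-3p was at 247, 969 and 1204 CPM and bta-miR-23a at 658, 273 and 175 CPM, so the first library was low for one and high for the other, on 3 and 8 counts. bta-miR-27a-3p had 2, 9 and 3 counts. From 0 h to 22 h in the control group, the log2 fold change (22 h over 0 h) was 0.27 for bta-miR-27b (SE 0.30, edgeR adjusted p = 0.95), 0.47 for bta-miR-23b-3p (SE 0.48, adjusted p = 0.95), -0.06 for bta-miR-24-3p (SE 0.32, adjusted p = 0.99) and 0.07 for bta-miR-23a (SE 0.55, adjusted p = 0.99).

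Between groups at the same time, no member passed the threshold. A call required an adjusted p under 0.05 in edgeR's quasi-likelihood test and a log2 fold change of at least 1 in size, with the replicate number as block. In 18 group comparisons, 0 of 78 member tests were called, where 0.266% of all 7883 tests were called. That background was 1.46% for CBX against DO at 1 h, 2.35% at 6 h and 0.232% at 22 h, 0.473% for co-culture against DO at 6 h, 0.216% for control against co-culture at 22 h and 0% in the remaining comparisons. An unadjusted p under 0.05 was found in 1 of the 78 tests, and DESeq2 called 0 with 1 such p. bta-miR-27a-3p passed the filter on low counts in 6 of the 18 comparisons and the other 4 detected members in all 18. For the family sums, 0 of 54 tests were called, with a background of 0.331%, and 1 had an unadjusted p under 0.05 in edgeR as in DESeq2.

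At 22 h, after blockade of the gap junctions, none of the 4 members tested against control oocytes passed the threshold. The CBX group here includes 1 of the 2 shallow libraries, and the median log2 fold change of the 474 miRNAs tested was -0.034. How many of the 474 were lower, or had ranges without overlap, was not counted. The directions below are therefore not read as particular to the members. bta-miR-24-3p was at 1636, 1326 and 1323 CPM in the control group and at 970, 254 and 1078 CPM in the CBX group. Its log2 fold change was -0.88 (SE 0.38, 95% interval -1.79 to 0.03, edgeR adjusted p = 0.48). Without the 2 shallow libraries the value was -0.52 (adjusted p = 0.28), and leaving out replicate 1, 2 or 3 gave -1.06, -0.51 and -1.34 (adjusted p = 0.74, 0.25 and 0.67). The summed cumulus and granulosa markers were at 10400, 11851 and 10087 CPM in the same control libraries. They were at 5974, 5852 and 6125 CPM in the CBX libraries, also without overlap. The sum was not divided by miRNA, and whether a single listed miRNA accounts for its difference was not tested. The sums are therefore not read as a measure of cumulus material. The part of the markers in the values of the members was not tested. The low library, at 254 CPM, held 5 counts of bta-miR-24-3p.

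bta-miR-23b-3p was at 1104, 1084 and 948 CPM in the control group and at 838, 559 and 840 CPM in the CBX group at 22 h. The log2 fold change was -0.41 (SE 0.26, edgeR adjusted p = 0.62), and -0.28 without the shallow libraries. bta-miR-27b was at 4069, 3380 and 5770 CPM against 3407, 2388 and 4233 CPM, and these ranges overlapped. Its log2 fold change was -0.34 (SE 0.18, adjusted p = 0.54). The means of bta-miR-23a were 318 and 260 CPM, with a log2 fold change of -0.07 (SE 0.37, edgeR adjusted p = 0.95), which turned to 0.19 without the shallow libraries. bta-miR-27a-3p, with 13, 5 and 11 counts in the control group and 2, 2 and 4 in the CBX group (means of 96.9 and 56.4 CPM), did not pass the filter and was not tested. Of the 474 miRNAs in this comparison, 50 had an unadjusted p under 0.05 and 0% were called.

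The DO group differed from the co-culture group in bta-miR-27b at 22 h by an unadjusted test only. The levels were 4702, 4376 and 4881 CPM in the co-culture group and 3878, 3769 and 3502 CPM in the DO group. The log2 fold change was -0.35 (SE 0.15, edgeR unadjusted p = 0.045, adjusted p = 0.66). Of 420 miRNAs tested there, 30 had an unadjusted p under 0.05 and 0 were called. The miR-27 sum gave -0.34 (SE 0.15, adjusted p = 0.68). Leaving out replicate 3 gave -0.22 for bta-miR-27b.

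Averaged over times in a fit of the 36 libraries, the intervals of the abundant members were narrow. For CBX against control, the log2 fold change of bta-miR-27b was -0.04 with a 95% interval of -0.25 to 0.16. It was -0.06 (-0.32 to 0.20) for bta-miR-23b-3p and -0.20 (-0.60 to 0.20) for bta-miR-24-3p. In DO oocytes against control, bta-miR-24-3p gave -0.12 (-0.52 to 0.28), with lower values in 8 of 9 pairs of the same replicate and time, the most one-sided tally of the 30 (5 members in 6 group contrasts). For CBX against control the intervals of the scarcer members were wider, -0.60 to 0.31 for bta-miR-23a and -1.09 to 0.41 for bta-miR-27a-3p. bta-miR-23a had its largest group difference between control and co-culture, at -0.40 (SE 0.22, unadjusted p = 0.081, edgeR adjusted p = 0.80). For the family sums of CBX against control, the values were -0.04 (-0.31 to 0.24) for miR-23 and -0.00 (-0.20 to 0.19) for miR-27, and 0 of 27 tests of family sums were called in the 9 contrasts, with a background of 0.223% and 0 unadjusted p-values under 0.05 in edgeR or DESeq2. In the 9 averaged contrasts 0 of 45 member tests were called, where 0.278% of all 5400 were. The background was 0.5% for CBX against co-culture, 0.333% for CBX against DO and 0% for the other group contrasts. An unadjusted p under 0.05 was found in 3 of the 45, and DESeq2 called 0 with 2 such p-values.

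**Figure D3:**
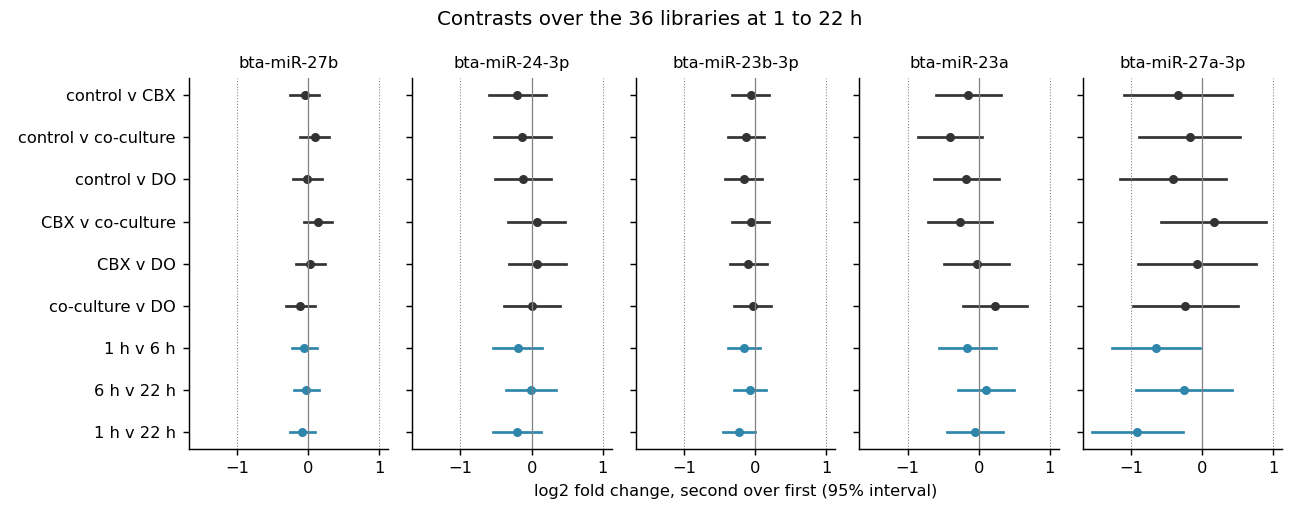
Log2 fold changes with 95% intervals of the 5 detected members in 9 contrasts of the 36-library fit, 6 between groups averaged over times (black) and 3 between times averaged over groups (blue). Dotted lines mark a log2 fold change of 1 in either direction. Of the contrasts between 1 and 22 h, that of bta-miR-27a-3p lies farthest from 0, at -0.91.

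During maturation, 0 of 63 member tests were called in the 15 comparisons between times of 1 group (edgeR), where 0.17% of all 6485 tests were called. The background was 0.44% between 1 and 22 h in the control group, 0.227% between 6 and 22 h in the CBX group, 1.81% between 1 and 22 h in the DO group and 0% in the remaining comparisons. An unadjusted p under 0.05 was found in 1 of the 63, and in 0 with DESeq2, which also called 0. For the family sums, 0 of 45 tests were called, with a background of 0.186%, and 0 had an unadjusted p under 0.05 in edgeR or DESeq2. The test with an unadjusted p under 0.05 in edgeR was that of bta-miR-27a-3p, the scarcest detected member, in the CBX group between 1 and 22 h. Its counts were 26, 9 and 13 at 1 h and 2, 2 and 4 at 22 h, and the levels of 223, 175 and 125 CPM at 1 h stood above 22.05, 102 and 45.4 CPM at 22 h. The log2 fold change was -1.95 (SE 0.59, unadjusted p = 0.015, edgeR adjusted p = 0.34). bta-miR-27a-3p passed the filter on low counts here through its libraries at 1 h, where it was higher, which favours a fall. No conclusion is drawn from this test. Among the 488 miRNAs tested there, the share called was 0%, and 60 had an unadjusted p under 0.05.

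Over the 4 groups together, bta-miR-27a-3p was at 142 ± 54.6 CPM at 1 h, 89.8 ± 44.2 CPM at 6 h and 82.4 ± 42.8 CPM at 22 h (SD, n = 12 each). At 1 h the lowest, median and highest libraries were at 47.2, 136 and 223 CPM, against 16.4, 74.5 and 159 CPM at 22 h. These levels rest on 137, 83 and 76 counts in all. The level at 22 h was below that at 1 h in 9 of 12 pairs of the same group and replicate. The log2 fold change from 1 to 22 h was -0.91 (SE 0.31, 95% interval -1.55 to -0.27, edgeR adjusted p = 0.061), short of the threshold, while 1.5% of the 600 miRNAs tested were called and 55 had an adjusted p under 0.05. Leaving out replicate 2 gave -1.32 with an adjusted p of 0.04, which is past the threshold, and leaving out replicate 1 gave -0.55. From 1 to 6 h the value was -0.65 (SE 0.30, unadjusted p = 0.040, adjusted p = 0.34), where 0.167% of the 600 were called, and it was -0.19 without replicate 1 and -0.98 without replicate 2.

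The values of the other members between 1 and 22 h were nearer to 0. bta-miR-27b had a mean of 4207 ± 592 CPM at 1 h and 4030 ± 866 CPM at 22 h (SD, n = 12), with a log2 fold change of -0.08 (95% interval -0.26 to 0.09, edgeR adjusted p = 0.57). bta-miR-24-3p gave -0.21 (-0.55 to 0.14) and bta-miR-23a -0.05 (-0.44 to 0.34). bta-miR-23b-3p gave -0.23 (SE 0.11, unadjusted p = 0.047, adjusted p = 0.18), with lower levels at 22 h in 8 of 12 pairs. The median over the 5 members was -0.21, and over the 600 miRNAs tested 0.001. Whether changes with time differed between groups was tested as an interaction, in which 0 of 5 members and 0% of the 600 miRNAs were called, 0 members had an unadjusted p under 0.05 in edgeR, and DESeq2 called 0 with 1 such p.

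The balance between the a and b copies is a ratio within a library and needs no scaling between libraries. bta-miR-23b-3p made up 76.8% of the summed miR-23 counts of the 36 libraries, with a lowest, median and highest share of 63.2%, 77.3% and 86.6% (mean 77.0 ± 5.01, SD, n = 36). bta-miR-27b made up 97.6% of the miR-27 counts, between 95% and 100% per library (mean 97.5 ± 1.34, SD, n = 36). The b copy therefore outnumbered the a copy in all 36 libraries and in both families. Reads that fit both copies could not be separated, and their part in the shares was not tested.

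The share of the b copy did not pass the test in any contrast. Exact two-sided sign-flip permutation tests of pairs with the same replicate number gave 0 of 18 adjusted p-values under 0.05, and the unadjusted p was under 0.05 in 1. This was the miR-27 share between 1 and 22 h, 96.7 ± 1.30% and 97.9 ± 1.18% (SD, n = 12), higher at 22 h in 9 of 12 pairs (permutation p = 0.016, adjusted p = 0.29). For CBX against control, the miR-23 share was 77.1 ± 4.25% and 76.1 ± 4.80% (SD, n = 9), a difference of 0.973 percentage points (exact p = 0.55). Pairs with the same replicate number may share an ovary pool and are not fully independent, which these tests do not take into account.

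**Figure D4:**
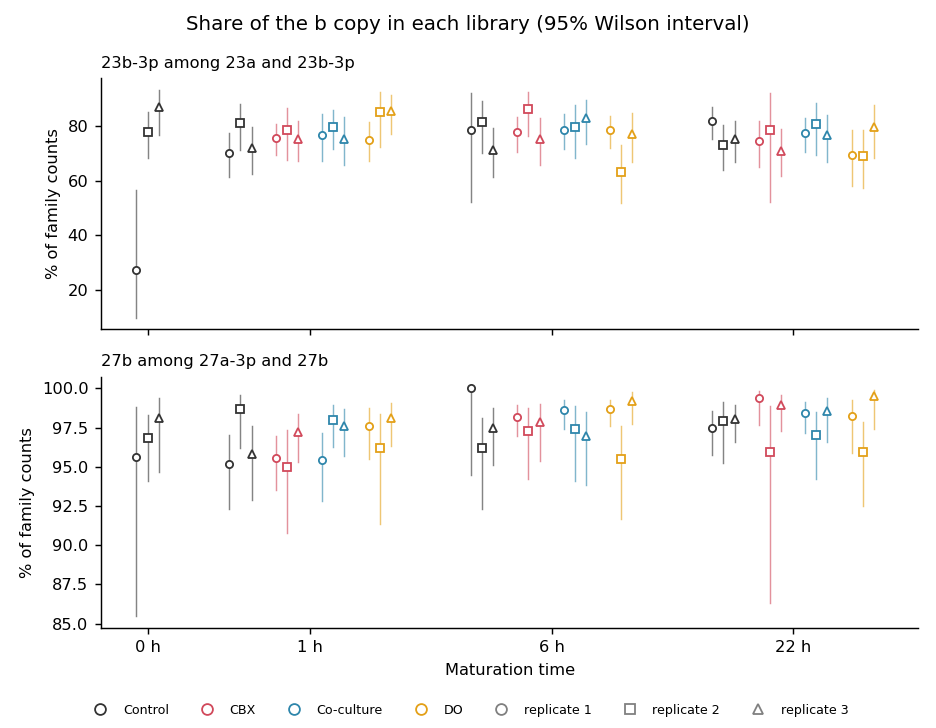
Percent of the miR-23 counts on bta-miR-23b-3p (top) and of the miR-27 counts on bta-miR-27b (bottom) in each library by maturation time, with 95% Wilson intervals for counting error and axes that do not start at 0. At 1 to 22 h the shares lie between 63.2% and 86.6% and between 95% and 100%, and the lowest point of the top panel is control 0 h replicate 1, with 3 of 11 counts.

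The levels of the detected members, which come from both clusters, were compared across the 36 libraries on the log2(CPM + 1) scale. The pairs are 10, and libraries of the same ovary pool are not independent. The highest correlation was that of bta-miR-23b-3p with bta-miR-24-3p (Pearson's r = 0.75, permutation p = 1e-05, the smallest that 100000 permutations can give, adjusted p = 0.0001, Spearman's rho = 0.51, permutation p = 0.0015). Within replicates 1, 2 and 3, r was 0.76, 0.85 and 0.72. Without the 2 libraries farthest from the median, which were the 2 shallow ones, r was 0.50 (adjusted p = 0.026). With the 3 libraries at 0 h included, it was 0.45 (adjusted p = 0.055). The level of bta-miR-24-3p was more highly correlated with some known miRNAs that are not members. With bta-miR-10174-3p, its r was 0.85 over the 36 libraries and 0.58 without the 2 shallow ones. Over 112 known miRNAs the median r with miR-24 was 0.27.

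For Pearson's r, an adjusted p under 0.05 was found for 8 of 10 pairs over the 36 libraries and for 1 of 10 without the 2 shallow ones. Spearman's rho over the 36 had an adjusted permutation p of 0.015 for bta-miR-23b-3p with bta-miR-24-3p. That p was 0.036 for bta-miR-23b-3p with bta-miR-27a-3p and 0.071 or more for the other pairs. For bta-miR-23b-3p with bta-miR-27a-3p, of different clusters, r was 0.53 (adjusted permutation p of r = 0.0053, rho = 0.45) with the 2 shallow libraries. Without them it was 0.41 (adjusted permutation p of r = 0.071, rho = 0.41). For bta-miR-24-3p with bta-miR-27b, r was 0.56 (adjusted permutation p of r = 0.0033, rho = 0.38) over 36 libraries and 0.29 without the 2, and within replicate 3 it was 0.04. For bta-miR-23b-3p with bta-miR-27b, of the same cluster, r was lower at 0.35 (adjusted permutation p of r = 0.049, rho = 0.20) and 0.05 without the 2. bta-miR-27a-3p with bta-miR-27b gave r = 0.17 (adjusted permutation p of r = 0.30, rho = 0.08). In the a cluster, bta-miR-23a with bta-miR-27a-3p gave r = 0.38 (adjusted permutation p of r = 0.026), and 0.28 without the 2. bta-miR-23a with bta-miR-24-3p gave r = 0.49 (adjusted permutation p of r = 0.0033), and 0.26 without the 2. Across clusters, bta-miR-23a gave r = 0.44 with bta-miR-23b-3p (adjusted permutation p of r = 0.015) and 0.20 with bta-miR-27b. These were 0.23 and -0.01 without the 2.

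**Figure D5:**
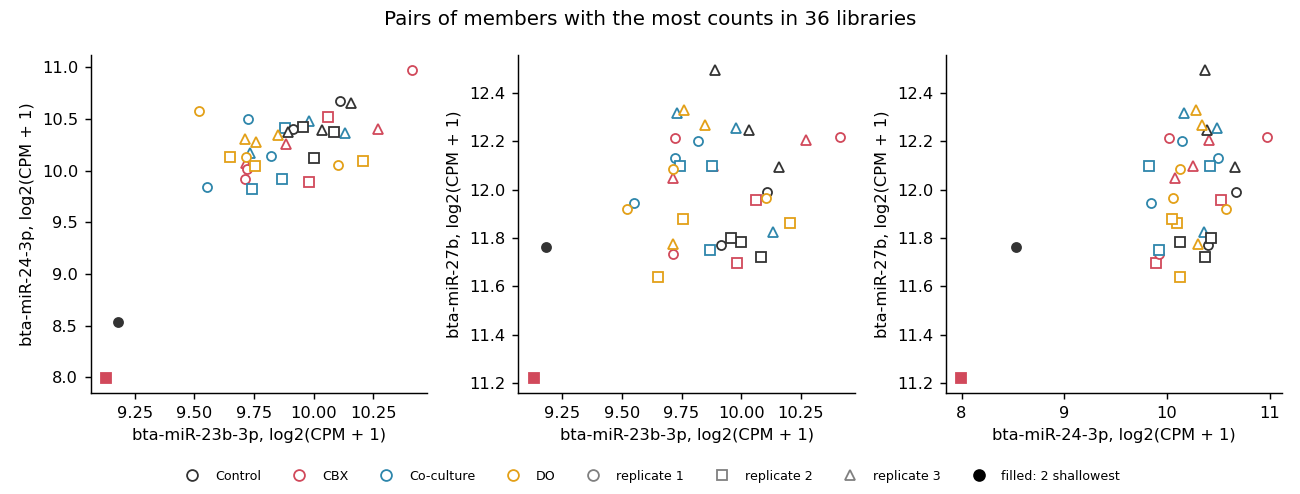
Levels on the log2(CPM + 1) scale of 3 pairs of members in the 36 libraries at 1 to 22 h, with colours for groups, marker shapes for replicate numbers and filled markers for the 2 libraries with the fewest counts. These lie at the low end of bta-miR-23b-3p and bta-miR-24-3p, and r is 0.50 without them and 0.75 with them in the left panel, and 0.05 and 0.35 in the middle panel.

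In the 2 shallow libraries the members were not low to the same degree. bta-miR-24-3p was at 369 and 254 CPM, on 7 and 5 counts, below the 905 to 2013 CPM of the other 34 libraries. bta-miR-23b-3p was at 580 and 559 CPM, on 11 counts each, below the 733 to 1362 CPM of the others. bta-miR-27b was at 3477 CPM in control 6 h replicate 1, where 5 of the other 34 libraries were lower, and at 2388 CPM in CBX 22 h replicate 2, where none was. The cause of these low values was not tested.

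The known miRNAs whose levels were most like each family were sought among 112, not counting the members, with a mean of at least 10 counts over the 36 libraries. For the miR-23 sum they were bta-miR-10174-3p (r = 0.86, and 0.77 without the 2 shallow libraries), bta-miR-20a (0.73 and 0.53) and bta-miR-22-3p (0.71 and 0.45), where the median r over the 36 libraries was 0.22. For miR-24 they were bta-miR-10174-3p (0.85 and 0.58), bta-miR-2483-5p (0.84 and 0.26) and bta-miR-19a (0.83 and 0.41), with a median of 0.27. For the miR-27 sum they were bta-miR-30e-5p (0.76 and 0.65), bta-miR-192 (0.69 and 0.55) and bta-miR-101 (0.69 and 0.54), with a median of 0.20. miR-19a and miR-20a are members of the miR-17-92 cluster. These values are descriptions over libraries that share ovary pools and depth.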

How the data were processed

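Small RNA libraries of oocytes (39, in 13 conditions of 3) were prepared with a QIAseq kit that marks molecules with unique molecular identifiers. The deposited values are whole-number counts that the authors made without normalization: reads were trimmed with UMI-tools (1.1.2 in the submitters' processing notes), checked with FastQC 0.11.9, mapped to the bovine genome ARS-UCD1.2, deduplicated by identifier and counted on known miRBase or predicted mature miRNAs. The aligner and the rule for reads that fit several copies are not given in the sources used here, and the counts cannot tell near-identical copies apart with certainty.

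Known and predicted counts were joined. Conditions and replicate numbers came from the labels, and the members and lists were chosen with earlier results of these data known. All members and the 3 family sums are named by rule, with fold changes given for control against CBX at 22 h, for the averaged time contrasts and wherever the unadjusted p was under 0.05. Further values were chosen after they had been seen. These are the fold changes against 0 h, the averaged group contrasts, the tallies of pairs and the 2 shallow libraries. Each of 33 comparisons used its own 6 libraries in edgeR 4.0.16 (limma 3.58.1, R 4.3.3) with filterByExpr (minimum count 10, minimum total 15), TMM, the quasi-likelihood test with edgeR 3 behaviour, the replicate number as block and Benjamini-Hochberg adjustment over all miRNAs tested. The 9 averaged contrasts and the interaction used 36 libraries. Fold changes are the second group over the first. The study entered the ovary pool as batch, and the replicate number was taken to stand for it. The paper reports that the experiment was repeated, with 2 repeats pooled for each replicate at 1, 6 and 22 h. How the 0 h libraries were made is not described there. The p-values measure the spread between these pooled libraries, not between single animals. Shares were tested by sign-flip permutation and correlations with 100000 permutations (scipy 1.17.1, pseudocount 1 CPM). The fits were tested on simulated data. The alternatives were no block, other size factors, DESeq2 1.42.0, no low-count filter, known miRNAs only, the robust option, other pseudocounts, other pairings and leaving out each replicate or, chosen after the data were seen, the 2 shallowest libraries. Total counts were 11985 to 175429 per library, so that 3 counts correspond to 250.3 CPM in the shallowest. The Wilson intervals of the shares and the floors cover counting error only. The intervals of the fold changes come from the quasi-likelihood fits and also include the spread between libraries. Sequences and miRNAs that share a seed with the members were not analysed here. RefSeq names and neighbours are from ARS-UCD2.0, a different build, so no coordinates are given.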

Additional observations from a re-analysis of the deposited data

Results flagged for a closer look

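The opposite arm of a member gave counts that the comparisons did not use. bta-miR-27a-5p, the other strand of the miR-27a hairpin, had 26 counts in 6 of the 39 libraries. It had 12 counts in control 0 h replicate 3, where bta-miR-27a-3p had 3. It had 5 counts in CBX 1 h replicate 1 and 5 in co-culture 1 h replicate 1, where bta-miR-27a-3p had 26 and 17, and 0 counts in the 3 control libraries at 1 h. The 3 remaining libraries had 1, 2 and 1 counts. bta-miR-23b-5p had 2 counts in 2 libraries. No test was made on these counts.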

How the results depend on the processing

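bta-miR-27a-3p had a median of 8 counts per library, and for bta-miR-24-3p under CBX at 22 h the 95% interval of the log2 fold change ran from -1.79 to 0.03. No member or family sum was called in the comparisons between groups, between times or for the interaction under any setting run. In the averaged contrasts the number of member calls ranged from 0 to 1 on leaving out each replicate, the 1 being bta-miR-27a-3p between 1 and 22 h without replicate 2 (log2 fold change -1.32, edgeR adjusted p = 0.04). Over all settings its value was -1.32 to -0.55, with adjusted p between 0.035 and 0.51. With DESeq2 (-0.92, adjusted p = 0.046) and without the 2 shallowest libraries (-0.96, edgeR adjusted p = 0.035) the p passed but the size stayed under 1.

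The pairs of members with an adjusted p of Pearson's r under 0.05 numbered 8 of 10. The count was 4 with known miRNAs only, 3 with the libraries at 0 h, 1 without the 2 shallowest libraries and 2 to 7 on leaving out each replicate. The causes were not tested, beyond the removal of those libraries.

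Same-numbered libraries deviated together with correlations of -0.159 to 0.645 (median 0.251), over 0.1 in 80 of 99 pairs. Whether a number stands for the same ovary pool in all samples was not tested. Without the replicate block 0 members and 0 shares were called, and with it as deviations from condition and replicate means 7 pairs of members had an adjusted p of Pearson's r under 0.05.

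Of 299 alternative values of 30 named fold changes, 281 kept direction and side of the threshold, 17 turned sign and 1 passed the threshold. Those that turned were all uncalled. With known miRNAs only these were bta-miR-23a at 22 h under CBX (0.033), bta-miR-27b from 1 to 6 h (0.067) and the miR-27 sum (0.053). Without the 2 shallowest libraries bta-miR-23a at 22 h under CBX was 0.187. bta-miR-24-3p from 6 to 22 h was 0.007 without the block, 0.002 with DESeq2 size factors and 0.007 with DESeq2. On leaving out each replicate the ranges were -0.329 to 0.196 for bta-miR-23a under CBX at 22 h. From 1 to 6 h they were -0.375 to 0.193 for bta-miR-23a, -0.341 to 0.041 for bta-miR-24-3p and -0.325 to 0.039 for the miR-23 sum. From 6 to 22 h they were -0.017 to 0.239 for bta-miR-23a, -0.198 to 0.004 for bta-miR-23b-3p, -0.263 to 0.233 for bta-miR-24-3p and -0.148 to 0.034 for the miR-23 sum. From 1 to 22 h the range was -0.176 to 0.176 for bta-miR-23a.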
